A study of Saccharomyces cerevisiae with 6 samples.

Results

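The central 25S segment is a run of 1132 positions in the middle of the 25S coding region of the yeast 35S gene, chosen by coordinate alone: positions 4384 to 5515 of the 6858 positions in the deposited table. It corresponds to nucleotides 1133 to 2264 of the 3396 nucleotides of mature 25S. In the R64 assembly of *Saccharomyces cerevisiae* it lies on the minus strand at chrXII:462055-463186, within an annotated rRNA exon and with no intron or UTR. The second copy of the gene in the assembly carries the same sequence at chrXII:452918-454049. The counts of both copies were added by the authors, and reads cannot be assigned to one of them. The 30 bases ending at each of the 1132 positions match those 2 places and nowhere else in the assembly.

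The 6 libraries, 3 from WT and 3 from *spt4△*, were made by native elongating transcript sequencing (NET-seq), which sequences the 3′ ends of nascent RNA bound to the polymerase. Cells were grown at 30 °C to an absorbance of 0.3, and Pol I was captured on anti-HA beads for 3 h through a tagged Rpa135 subunit. Both strains share the *ade2*, *ura3*, *trp1*, *leu2*, *his3* and *can1* background mutations and the HA and histidine tag on *RPA135*. In WT the tag is marked with *TRP1*, chromosomal *RPA190* is replaced by *HIS3*, and the largest Pol I subunit is supplied from plasmid pRS315-*RPA190*. In *spt4△* the tag is marked with *URA3*, *SPT4* is replaced by *HIS3*, and no change of *RPA190* is listed. These other differences between the strains cannot be told apart from the loss of Spt4. The libraries of a strain are described as biological replicates, and p-values measure the spread between them.

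Pol I transcribes a single gene, whose 35S precursor is cut into the 18S, 5.8S and 25S rRNAs, and 25S is the main RNA of the large ribosomal subunit. Spt4 binds Spt5, and the complex travels with elongating polymerases. A position where many nascent 3′ ends are found may be one at which the polymerase moves more slowly. Such high positions are called pauses below, as a name for their occupancy only. NET-seq gives the distribution of polymerases along the gene and not their absolute number. Whether the occupancy of this stretch, and the sequences at its pauses, differ without Spt4 is the question that the comparison addresses.

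The sequences at the pauses come first, since the results turn on them. They were read from the base column of the deposited table as RNA. Each of the 5 positions with the highest WT median is shown with 29 bases before and 20 bases after it, and the capital marks the last incorporated nucleotide.
5046 (chrXII:462504-462553): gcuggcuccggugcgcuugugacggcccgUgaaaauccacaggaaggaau
5158 (chrXII:462392-462441): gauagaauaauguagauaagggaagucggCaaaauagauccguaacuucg
5338 (chrXII:462212-462261): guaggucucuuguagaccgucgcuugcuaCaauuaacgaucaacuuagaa
4429 (chrXII:463121-463170): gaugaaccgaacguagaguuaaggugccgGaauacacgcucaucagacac
5458 (chrXII:462092-462141): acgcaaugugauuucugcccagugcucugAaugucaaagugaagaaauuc
In each of the 5, at least 1 A stands among the first 2 bases after the capital.

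The unit is rpm, the count of read ends at a position divided by the library's total up to the terminator T1 and multiplied by 1000000. The segment held 1134331 to 2068630 reads in a WT library and 56892 to 90067 in a *spt4△* library. The totals of the WT libraries were 20.1 times those of *spt4△* by their medians. The median position held 675 to 1138 reads in WT and 39 to 62 in *spt4△*. No position was at 0 in any library. The smallest occupancy that the depth could show, taken as 3 reads, lay between 0.299 and 0.541 rpm for WT and between 6.22 and 9.76 rpm for *spt4△*, a limit for counting error only. It exceeded the value at 1, 1 and 4 positions in the 3 *spt4△* libraries. Spearman's rho across the 1132 positions, which are not independent, was 0.976 to 0.983 between WT libraries, 0.928 to 0.94 between *spt4△* libraries and 0.804 to 0.856 between the strains. Depth and strain cannot be told apart, and the sequencing run of a library is not given in the sources used here. With 3 libraries against 3, the smallest p of a two-sided exact permutation test is 0.1.

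**Figure D1:**
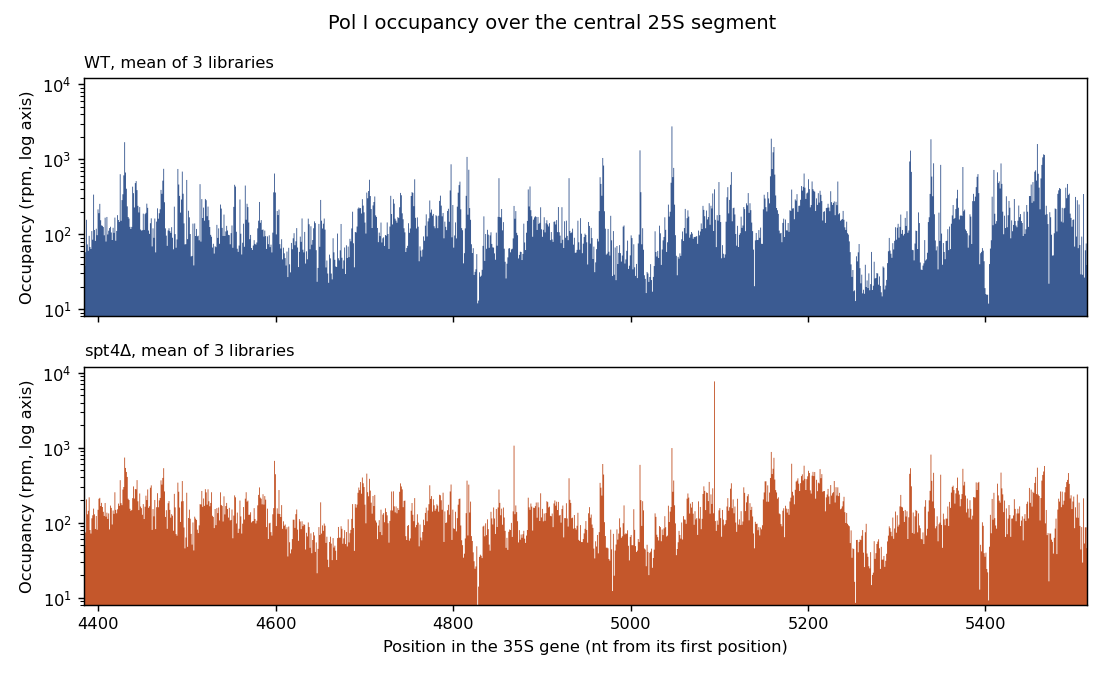
Mean occupancy of 3 libraries in rpm on a log axis, by position in the 35S gene, for WT (upper panel) and *spt4△* (lower panel). The tallest WT position is 5046 at 2791 rpm, and the tallest *spt4△* position is 5094 at 7771 rpm.

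A smaller share of the library's reads lay in the segment in *spt4△*. In WT the segment held 20.6%, 20.5% and 20.6% of reads, and in *spt4△* 18.7%, 18.4% and 18.5%, so the strains did not overlap (log2 ratio −0.15, two-sided exact permutation p = 0.1). A single position, 5094, held 3.71%, 4.45% and 4.44% of the segment's reads in *spt4△* and 0.231%, 0.203% and 0.156% in WT. Without it, the segment's share was 20.5% ± 0.101 (SD, n = 3) in WT and 17.7% ± 0.229 in *spt4△*, a log2 ratio of −0.21 (exact permutation p = 0.1). The library's total still counted 5094 and position 6399, outside the segment. Position 6399 held 6648, 6049 and 4795 rpm in WT and 43139.5, 38141.7 and 33858.5 rpm in *spt4△*, which lowers every other share in *spt4△*.

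The lower share was not seen at the typical position. The median position was at 120.2 ± 6.04 rpm (SD, n = 3) in WT and 128 ± 0.835 rpm in *spt4△*, without overlap between the strains (exact permutation p = 0.1). The value that 10% of positions lay under was 38.7, 41.4 and 46.4 rpm in WT and 47.7, 47.9 and 48.8 rpm in *spt4△*. The value that 10% of positions exceeded was 381, 357 and 369 rpm in WT and 309, 294 and 296 rpm in *spt4△*. The range between these 2 values was therefore narrower in *spt4△*, at a ratio of 6.23 ± 0.219 against 8.81 ± 0.96 in WT (exact permutation p = 0.1). Low positions were higher and high positions lower in the strain without Spt4.

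To describe this without using the same reads to rank and to compare, positions were placed in 10 groups by their occupancy in 1 WT library, and *spt4△* was set against the 2 WT libraries that had not ranked them. Position 5094 was left out. The lowest group, 114 positions, had a log2 ratio of summed reads of 0.52 to 0.63 over the 3 choices of ranking library. Group 5 had 0.12 to 0.26. The highest group, 113 positions, had a mean between 635 and 667 rpm in WT and between 364 and 375 rpm in *spt4△*, a log2 ratio of −0.83 to −0.80. The ratio was lower from group to group along most of the range, with the largest step between groups 9 and 10.

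**Figure D2:**
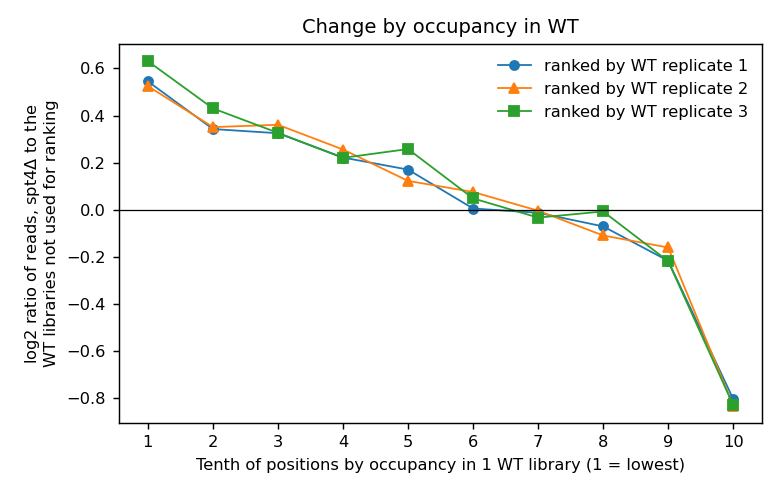
The log2 ratio of reads in *spt4△* to reads in the 2 WT libraries not used for ranking, for 10 groups of the segment's positions ordered by occupancy in the other WT library. All 3 lines run from 0.52 to 0.63 at the lowest group to −0.83 to −0.80 at the highest.

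The same grouping in the neighbouring segments of 25S, of 1132 positions each, gave a log2 ratio between −0.63 and −0.62 for the highest group of the first segment and between −0.72 and −0.70 for that of the last. Position 6399, the highest of the gene, was left out of the last segment. The share of a segment's reads held by each library's own 28 highest positions (2.5% of 1132) was compared in all 3. In the central segment without 5094 it was 17.2%, 15.8% and 14.5% in WT and 10.0%, 9.33% and 9.75% in *spt4△*. On average the difference between the strains was −6.16 percentage points here, −3.76 in the first segment and −3.56 in the last. The difference between the central and the first segment was 3.71, 3.45 and 2.262 points in WT and 0.522, 0.793 and 0.921 points in *spt4△* (exact permutation p = 0.1). That between the central and the last was 1.24, 1.46 and 0.502 points in WT and −1.92, −1.53 and −1.14 points in *spt4△* (exact permutation p = 0.1). In both comparisons the strains did not overlap. With 5094 left out, the difference at the highest positions was larger in the central segment than in either neighbour. The p was the smallest that 3 against 3 allows. With 5094 counted, the share was 15.8% ± 1.32 in WT and 13.2% ± 0.23 in *spt4△*. That difference of −2.58 points is smaller in size than that of either neighbour, so the order depends on leaving out 5094.

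In reads per segment, the difference from the rest of 25S was small. The ratio of its reads to those of the other 25S positions was 0.496, 0.501 and 0.512 in WT and 0.467, 0.47 and 0.474 in *spt4△* (exact permutation p = 0.1). Without positions 5094 and 6399 the strains overlapped, at 0.509 ± 0.00756 and 0.499 ± 0.00444 (SD, n = 3; exact permutation p = 0.2).

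To test each position, limma was fitted to log2(rpm + 1) over the 6848 positions of the gene that entered the fit. A position was called where the adjusted p (Benjamini-Hochberg) was under 0.05. In the segment 241 positions were higher in *spt4△* (21.3%) and 256 were lower (22.6%). Over the whole gene the shares called were 25.2% higher and 21% lower, against which both counts are read. Among the called positions the median log2 change was 0.66 for the higher and −0.84 for the lower ones. At 308 positions all *spt4△* libraries lay above all WT libraries and at 316 all lay below, where the gene had 30.7% and 25.9%. The median log2 change of all 1132 positions was 0.06, and that of the gene was 0.08. Left without WT replicate 1 the count of higher positions was 132, and without WT replicate 2 it was 153. When libraries were scaled to the median position of the gene, which moved the median change of the gene by −0.13, 162 were higher and 315 lower. Scaling to the segment's own total without 5094, a shift of 0.20, gave 426 higher and 196 lower. The direction of small changes therefore depends on the total by which a library is divided.

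The highest WT positions fell together. The 28 positions with the highest WT median were all lower in *spt4△* (28 of 28, limma adjusted p under 0.05), with log2 changes from −1.57 to −0.50 and a median of −1.11. Over the whole gene 21% of positions were called lower. The 28 were chosen on WT values that enter the comparison, so the count is a description. When the 28 highest positions were instead chosen in 1 WT library, all *spt4△* libraries lay below both other WT libraries at 28, 28 and 27 of 28 positions. The share of reads at these positions was then 14.3% to 16.9% in the WT libraries not used to choose them and 7.59% to 8.82% in *spt4△*. Positions chosen in 1 *spt4△* library, without 5094, lay below all WT libraries in both other *spt4△* libraries at 18, 16 and 18 of 28. They held 8.97% to 9.62% of reads in the other *spt4△* libraries and 12.2% to 14.2% in WT. With all 6 libraries, 25.9% of the gene's positions were lower in *spt4△* without overlap. That share was not computed with the choosing library left out. Under the scalings by the median position and by the segment total, 28 and 27 of the 28 WT pauses were called lower.

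**Figure D3:**
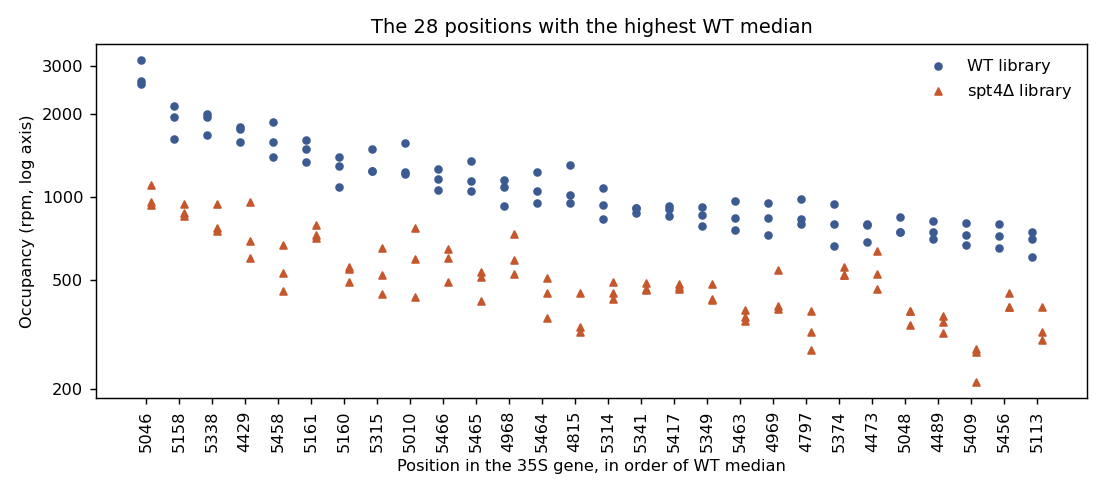
Occupancy in rpm on a log axis at the 28 positions with the highest WT median, in order of that median, with a point for each library. At every position the 3 *spt4△* libraries lie below the 3 WT libraries.

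Position 5046, nucleotide 1795 of 25S, was the strongest WT pause, and its sequence is printed above. It held 3158, 2642 and 2573 rpm in WT and 958, 939 and 1109.8 rpm in *spt4△*. No *spt4△* library reached the lowest WT library, and the mean fell 2.78-fold, a log2 change of −1.47 (standard error 0.16, limma adjusted p = 3.63e-05). It ranked 1 of 1132 in WT and 3 in *spt4△*. The position before it, 5045, was among the 6 largest falls as well, with 619.6, 483 and 381 rpm in WT and 197, 148 and 146 rpm in *spt4△* (log2 change −1.57).

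The next pauses in WT order were also lower in *spt4△*. Position 5158 held 1964, 2155 and 1622 rpm in WT and 852, 943 and 872 rpm in *spt4△* (log2 change −1.10, adjusted p = 0.000167). Position 5338 held 2006, 1954 and 1677 rpm in WT and 939.6, 768 and 752 rpm in *spt4△* (log2 change −1.20, adjusted p = 8.83e-05). The means were 2.15-fold and 2.29-fold lower, and the strains overlapped at neither. Position 4429, the strongest pause near the start of the segment, held 1793, 1589 and 1772 rpm in WT and 958, 597 and 689.99 rpm in *spt4△* (log2 change −1.22). At rank 5 in WT was 5458, with 1884, 1583 and 1405 rpm, and in *spt4△* it held 668, 526 and 452 rpm (log2 change −1.57, adjusted p = 3.19e-05). It dropped to rank 17 in *spt4△*, whereas 5158, 5338 and 4429 ranked 4, 5 and 7.

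Of the 28 WT pauses, 6 lie within 11 positions near the end of the segment, from 5456 to 5466. They are shown because the deepest loss of the segment lies there, and the capitals mark the 6 positions.
5436 to 5486 (chrXII:462084-462134): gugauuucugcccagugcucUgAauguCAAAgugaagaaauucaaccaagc
The stretch from 5456 to 5466 held 4.93%, 4.31% and 3.93% of the segment's reads in WT and 2.38%, 1.99% and 2.17% in *spt4△*, without overlap. It was chosen after its values were seen, and no test was made.

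Among the 6 largest falls of the positions eligible to be named, the 3 that are not WT pauses (5099, 5045 and 4886) are at G residues. Eligible positions had a mean above that of the median position of the gene, 105 rpm. Position 5099 showed the largest of these falls, from 579, 501 and 434 rpm in WT to 168, 116 and 159 rpm in *spt4△*. The mean was 3.41-fold lower, a log2 change of −1.77 (standard error 0.16, adjusted p = 9.61e-06). It lies 5 positions downstream of 5094. Position 4886 held 473, 426 and 424 rpm in WT and 178, 146 and 127 rpm in *spt4△* (log2 change −1.56). The others among the 6 largest falls are 5458 and 5045, given above, and 4815 (log2 change −1.57). The sixth, 5409, had a log2 change of −1.53.

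At 5094 the change went the other way and was by far the largest of the segment. Occupancy there was 477, 415 and 322 rpm in WT and 6929.6, 8165 and 8218 rpm in *spt4△*. Position 5094 is a C, nucleotide 1843 of 25S, at 462476 on chromosome XII. The mean rose 19.2-fold, a log2 change of 4.27 (standard error 0.18, limma adjusted p = 8.24e-08). The position ranked 88 of 1132 in WT and 1 in *spt4△*. Between 2299 and 4776 reads ended at it in the WT libraries and between 2525 and 3583 in those of *spt4△*. The read counts of the strains thus overlapped, whereas the library totals they are divided by differed 20.1-fold. Whether the rise at 5094 is one of polymerases was not tested. Neither immediate neighbour was among the 28 highest of *spt4△*.

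A second isolated rise stood at 4868, a G. It held 246, 265 and 216 rpm in WT and 1018, 1126 and 1094 rpm in *spt4△*, without overlap. The mean rose 4.45-fold, a log2 change of 2.15 (standard error 0.12, adjusted p = 3.13e-07), and the position moved from rank 216 to rank 2. The other rises among the 6 largest ended at lower levels. Position 5332, a U, held 37.6, 52.1 and 46.3 rpm in WT and 219.9, 198 and 189 rpm in *spt4△* (log2 change 2.14, adjusted p = 4.74e-06). Log2 changes of 1.45, 1.30 and 1.26 were found at 4527, 5360 and 4845. In *spt4△* these 4 ranked between 155 and 415, so that of the 6 rises only 5094 and 4868 were among the 28 pauses of *spt4△*. Each of the 6 rises and 6 falls kept its direction and an adjusted p under 0.05 in all 15 alternative fits, over which the adjusted p of 5094 was at most 3.68e-05.

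The 2 isolated rises share a feature of sequence downstream. The linker ligated to the RNA 3′ end carries 8 variable bases after CA, followed by the constant bases CUCCACG, written as RNA. At a position of the gene, the same offsets are +11 to +17. Across the segment, 3 positions match the linker there at 6 of 7 letters and none at 7, and the capitals mark the letters that match.
5094, bases 5085 to 5114 (chrXII:462456-462485): uacugauaaccgcagcagguCUCCAaGgug
4868, bases 4859 to 4888 (chrXII:462682-462711): ccggaaccuggauauggauuCUuCACGgua
4734, bases 4725 to 4754 (chrXII:462816-462845): aagacugaaguggggaaagguUCCACGuca
Of these, 5094 and 4868 had the 2 largest rises of the positions eligible to be named. At 4734, where the first letter differs, occupancy was 149, 159 and 183 rpm in WT and 108, 175 and 133 rpm in *spt4△* (log2 change −0.26, adjusted p = 0.243).

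Over the whole gene 5 positions match at 6 of 7 letters, 0.0731% of those compared. Their median log2 change was 2.15. The 2 outside the segment are 6399, with 2.72, and 5783, with 0.16 (adjusted p = 0.418). Large rises also occurred with few matching letters. Over the gene the highest log2 change was 4.84 among 1116 positions with 0 letters and 5.56 among 2372 with 1. It was 5.01 among 963 positions with 3. Each lies above that of 5094, but is the highest of many positions, and the occupancy behind it is not given here. In the segment, 5261 with 1 letter and 5265 with 3 letters, which were too low to be eligible and are named after their values were seen, had 2.24 and 2.23, above the 2.15 of 4868. In the segment, 7 positions match at 5 letters, of which 3 were called higher and 0 lower, with a median log2 change of 0.29. The 53 positions with 4 matching letters had 12 higher and 17 lower and a median of −0.04. Over the whole gene 25.2% of positions were called higher and 21% lower, and the counts by letters are a description only. This comparison was made after the values had been seen. The full pair CA, constant in the linker at +1 and +2, stands at none of the 5 positions. There 5094 has CG, with the C of the linker, and 4868 and 6399 have GA, with its A. Neither base of the pair is in place at 4734, which has UG, or at 5783, which has GG. The 3 positions of the segment that do have CA there and CU at +11 and +12 (4709, 5348 and 5368) had log2 changes of −0.12, 0.28 and 0.02, none of them called. They match the linker at only 2, 2 and 3 of the 7 letters, so they show nothing about positions with 6. Whether reads at 5094 and 4868 came from the linker's likeness to the gene was not tested.

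**Figure D4:**
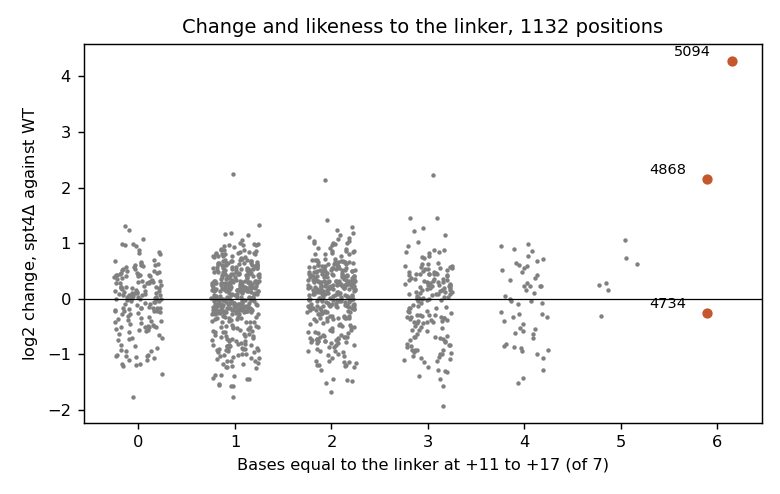
The log2 change of each of the 1132 positions by the number of bases at +11 to +17 that equal the linker, with points spread sideways for legibility. Positions 5094 and 4868 at 6 matching bases have the values 4.27 and 2.15, while 4734 lies at −0.26.

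Both strains shared 15 of their 28 pauses. All 15 were lower in *spt4△*, with a median log2 change of −1.19. The 13 positions that were pauses in WT alone had a lowest WT median of 704 rpm and were all lower as well. Just outside the WT set lay 5159 at 702 rpm, and just outside the *spt4△* set lay 5201 at 463 rpm, where the last member, 5417, had 469 rpm. Of the 13 pauses of *spt4△* alone, 7 were higher, 1 was lower and 5 were not called, and their median log2 change was 0.32. Both sets were chosen on the values compared, which largely fixes these directions, so the counts are a description only.

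Of those 13, 6 lie within 33 positions, from 5181 to 5213. The stretch is shown for its runs of G, and the capitals mark the 6 positions.
5171 to 5223 (chrXII:462347-462399): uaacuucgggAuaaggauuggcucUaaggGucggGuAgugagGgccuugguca
G makes up 42.4% of the bases from 5181 to 5213, where the segment has 29.9%. The mean occupancy over the 33 positions was 334, 319 and 364 rpm in WT and 372, 371 and 376 rpm in *spt4△*, and 7 of them were called higher (21.2%, against 25.2% over the gene) and 0 lower. Position 5181 rose from 401 ± 33.8 rpm (SD, n = 3) to 619 ± 59.2 rpm (log2 change 0.62, adjusted p = 0.00133), and matches the linker at 5 letters. At 5195 the values were 679.9, 604 and 685 rpm in WT and 562, 536 and 651 rpm in *spt4△*, which overlap. The stretch was chosen after its values were seen, and no test was made.

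At the pauses, the bases around the last nucleotide were compared per library, using each library's own 28 highest positions. After the last nucleotide, at +1 to +10, G and C made up 37.9%, 37.1% and 38.2% in WT and 45.4%, 44.3% and 43.6% in *spt4△*. All these shares lie below the 50.6% of all 1132 positions. The strains did not overlap (difference 6.67 points, two-sided exact permutation p = 0.1, Benjamini-Hochberg adjusted over 7 shares 0.233). When pauses were taken by their ratio to the surrounding 200 positions, the difference was 0.952 points (exact permutation p = 0.5). Within −10 to −2, where the RNA is paired with the template, G and C made up 55.6% ± 0.397 (SD, n = 3) in WT and 57.8% ± 0.916 in *spt4△*, against 50.7% of all positions. That difference of 2.25 points turned to −0.975 points with the top 5% of positions (57). Farther upstream, at −30 to −11, A and U made up 53.5% ± 1.16 and 56.0% ± 1.7, which overlap, against 49.5% of all positions.

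The last nucleotide of a pause was A more often than in the segment at large. It was A at 36.9% ± 2.06 of WT pauses and 34.5% ± 2.06 of *spt4△* pauses, where 25.9% of the segment's positions are A. G ended 10.7%, 10.7% and 17.9% of pauses in WT and 25% in each *spt4△* library, against 29.9% of all positions (exact permutation p = 0.1, adjusted 0.233). With the top 5% of positions the strains differed by 5.26 points in this share (exact permutation p = 0.3). The next base, at +1, was A at 14 of 28 pauses in either strain, where 25.8% of the segment's positions are followed by A. It was C at 2 WT pauses and 1 *spt4△* pause.

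Over all reads of the segment without 5094, those ending in A made up 32.3%, 32.6% and 31.6% in WT and 28.3%, 29.5% and 30.0% in *spt4△*. Reads ending in U were higher, at 22.9% ± 0.345 (SD, n = 3) and 24.7% ± 0.424, as were reads ending in G, at 24.3% ± 1.14 and 26.2% ± 0.342. In these 3 shares the strains did not overlap (exact permutation p = 0.1, adjusted over 4 bases 0.133). Reads ending in C overlapped, at 20.6% ± 0.435 and 19.7% ± 0.705 (exact permutation p = 0.2). With 5094, which ends in C, reads ending in C were 2.41 points higher in *spt4△*. The difference for G was then 0.835 points (exact permutation p = 0.4). By single positions, 38 of 293 A positions were higher (13.0%) and 96 lower (32.8%), with a median log2 change of −0.17, where the gene had 25.2% and 21%. Of 266 U positions 90 were higher (33.8%) and 43 lower (16.2%), with a median of 0.24. The G positions had 53 higher (15.6%) and 58 lower (17.1%) of 339. The 233 C positions other than 5094 had 59 (25.3%) in either direction, near the share of the gene for higher calls.

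Across the segment, occupancy followed base content weakly in both strains. Spearman's rho between occupancy and the share of A and U at −30 to −11 was 0.253 to 0.277 in WT and 0.265 to 0.303 in *spt4△*, over 1131 positions that share bases with their neighbours. For G and C at +1 to +10 it was −0.23 to −0.194 in WT and −0.173 to −0.164 in *spt4△*, so that the negative relation was nearer to 0 in each *spt4△* library. The stretch from −10 to −2 gave 0.072 to 0.118 and 0.113 to 0.128, which overlap.

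Within the segment, the difference in reads was largest toward the 3′ end. The segment was divided into 4 stretches of 283 positions, and 5094 was left out. As a share of the library's reads, stretch 4 (positions 5233 to 5515) held 5.89%, 5.76% and 5.59% in WT and 4.44%, 4.24% and 4.38% in *spt4△*. Stretch 3 held 5.92% ± 0.127 (SD, n = 3) and 5.12% ± 0.0487, and stretch 2 held 4.31% ± 0.162 and 3.89% ± 0.0619. In these 3 stretches *spt4△* was lower without overlap (exact permutation p = 0.1, adjusted over 4 stretches 0.133). In stretch 1 (4384 to 4666) the strains overlapped, at 4.38%, 4.56% and 4.75% in WT and 4.46%, 4.36% and 4.31% in *spt4△* (exact permutation p = 0.2, adjusted 0.2).

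As a share of the segment's own reads, where a smaller share in 1 stretch makes the others larger, stretch 4 held 28.6%, 28.2% and 27.1% in WT and 24.7%, 24.2% and 24.8% in *spt4△*. Stretch 1 then held 22.2% ± 0.896 (SD, n = 3) in WT and 24.7% ± 0.266 in *spt4△*, and stretch 2 held 21.0% ± 0.704 and 21.9% ± 0.247 (exact permutation p = 0.1 for each of the 3, adjusted 0.133). Stretch 3 overlapped, at 28.8% ± 0.662 and 28.9% ± 0.295, whereas with 5094, which lies there, it was 2.89 points higher in *spt4△*. Without the highest 0.5% of the gene's positions, the difference in stretch 2 was 0.156 points (exact permutation p = 0.8). By calls on the scale of the library, stretch 1 had 74 positions higher (26.1%) and 52 lower (18.4%), and stretch 4 had 66 (23.3%) and 85 (30.0%), where the gene had 25.2% and 21%.

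Windows of 50 positions, 22 in all, showed where the change concentrated. In 13 the *spt4△* libraries lay below WT without overlap, in 2 above, and in 7 they overlapped. Over the gene, 38.2% of 136 such windows were lower and 36% higher. The deepest loss was at 5434 to 5483, the window of the 6 clustered pauses, with 382, 341 and 325 rpm in WT and 194, 173 and 182 rpm in *spt4△*. Of its 50 positions 35 were called lower and 0 higher, where 21% of the gene's positions were called lower and 25.2% higher. The 2 windows next in depth, at 4784 to 4833 and 5384 to 5433, had log2 ratios of −0.72 and −0.63.

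The window at 5234 to 5283, the least occupied of the 22 in WT, was 1 of the 2 that were higher. Its occupancy was 55.3, 56.3 and 69.0 rpm in WT and 74.2, 71.6 and 77.5 rpm in *spt4△*, with 18 positions higher and 1 lower. The window at 4584 to 4633 held 97.4, 111 and 114 rpm in WT and 138, 131 and 122 rpm in *spt4△*. In 5 of the 13 windows with fewer reads, the median log2 change of the single positions was above 0. At 4734 to 4783 it was 0.0016, which is no rise, where the median of the gene was 0.08. In the others it lay between 0.11, at 5034 to 5083, and 0.31, at 5284 to 5333. The direction of changes this small depends on the scaling of the libraries.

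**Figure D5:**
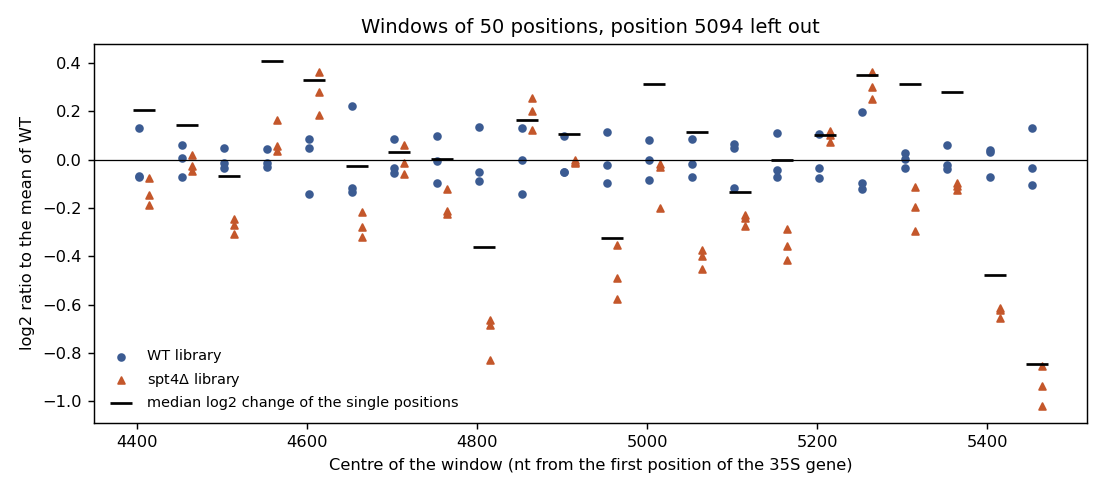
The log2 ratio of each library's mean occupancy to the WT mean in 22 windows of 50 positions without 5094, with a bar for the median log2 change of the single positions. The *spt4△* libraries lie farthest below WT in the last window at 5434 to 5483, and above it at 4584 to 4633 and 5234 to 5283.

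The first and the last position of the segment had low occupancy in both strains. The first position, 4384, held 34.9, 39.5 and 40.9 rpm in WT and 35.3, 50.1 and 65.1 rpm in *spt4△* (adjusted p = 0.308). The last, 5515, held 23.1, 24.3 and 28.8 rpm in WT and 45.6, 63.8 and 35.8 rpm in *spt4△* (log2 change 0.87, adjusted p = 0.0213). The fewest reads behind a value were 17 at 4384 and 11 at 5515, and the adjusted p of 5515 rose to between 0.065 and 0.091 without WT replicate 1, WT replicate 2 or *spt4△* replicate 2.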

How the data were processed

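The authors removed duplicate reads by their molecular identifiers, kept and trimmed reads that began with the linker (cutadapt 1.12), aligned them to R64-1-1 without splicing (STAR 2.7.1a), counted read ends per position (bedtools 2.26.0) and added both gene copies. The deposited values are rpm, which the authors obtained from counts through the total of each library. Of 41148 values, 99.97% were whole multiples (within 0.01) of a step taken as 1 read. From this, reads were recovered for depth and count-based alternatives.

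Here limma 3.58.1 (lmFit, eBayes with trend; R 4.3.3) was fitted to all 6848 positions with a read, on log2(rpm + 1) with strain as the only term, with no filter on low values. With recovered reads, quasi-likelihood testing in edgeR 4.0.16 called 262 positions of the segment higher and 259 lower, 491 of them shared with limma and all 491 in the same direction. DESeq2 1.42.0 was a further alternative. The fits were tested on simulated data. Values with 1 number per library were compared by two-sided exact permutation tests (Python 3.11.15, numpy 2.4.6, scipy 1.17.1). No 2 libraries of a strain agreed within sampling noise.

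Positions named are 5094, the 5 highest medians in each strain, the 6 largest called changes in each direction (no overlap, mean above the gene's median position), the first and last position, and linker-like positions. Pauses are the 28 highest medians. Members, lists and tests were chosen with earlier results of these data known. Alternatives changed the pseudocount, filter, scaling, tool, replicate block, top set, or left out libraries or positions. Shares of the library held by the 4 stretches were added after the data were seen. The authors' deposited means, ratios and p-values were not used.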

Additional observations from a re-analysis of the deposited data

How the results depend on the processing

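Of 17 named positions called, 16 were called in all 15 alternative fits. The exception was 5515. The replicate numbers did not pair the libraries (correlations of same-numbered deviations −0.053 to 0.021 over the gene), and a fit with a replicate block called 245 positions higher and 261 lower. Leaving out each library in turn gave 132 to 241 higher calls and 217 to 269 lower calls, and scaling to the segment total gave 426 higher. The log2 ratio of the segment's share of reads was −0.21 without 5094 and 0.089 as a median over positions. Relative to the rest of 25S it was −0.029 without 5094 and 6399, 0.097 as a median over positions and 0.0090 without the highest 0.5% of the gene's positions. With 5094 the differences of the 4 stretches of 283 positions were 1.44, 0.0656, 2.89 and −4.40 points. Without the highest 0.5% those of stretches 2 and 3 were 0.156 and 0.956. With 5094 the differences by last base were −4.07 for A, 2.41 for C, 0.835 for G and 0.827 for U, and without the highest 0.5% it was 0.0772 for C. The share of reads at the highest positions differed by −0.115 points for the top 1%, by −4.58 for the top 5% and by −6.16 without 5094. An alternative chosen after seeing the data, without the 3 positions with 6 linker letters, gave −6.47. Among pauses taken as the top 1%, the differences were −21.2 points for A, −3.03 for C and 9.09 for U as last base. As the top 5% they were −0.585 for C, 5.26 for G and −0.975 for G and C at −10 to −2. By ratio to the surroundings they were −8.33 for A, 4.76 for both C and G, −0.661 for G and C at −10 to −2 and 0.952 for those at +1 to +10. Without 5094, G and C at −10 to −2 differed by 4.10 points. The cause of these shifts was not tested. Depth limits *spt4△* most, with a median of 39 to 62 reads at a position.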
